A study of Mus musculus with 28 samples.

Results

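Replicating a genome needs a fixed set of proteins, and the 50 genes described here encode them: origin recognition and licensing factors, the replicative helicase, the sliding clamp and its loader, the polymerases and primase, single-strand binding and Okazaki fragment enzymes, nucleotide synthesis enzymes and the factors that rebuild chromatin behind the fork. The 50 were taken by gene symbol from a list chosen for function, and all 50 were found among the 24421 symbols of the count table. They were followed in RNA-seq libraries of thymocytes, the developing T cells of the mouse thymus, at 2 double-negative (DN) stages: DN2/3, at which the T-cell receptor beta gene is rearranged, and DN4, which follows it. The 28 libraries formed 6 groups: wild-type C57BL/6 (WT, 4 libraries at each stage), mice carrying an Lmo2 transgene (Lmo2tg, 5 at each stage), and mice carrying the same transgene together with deletion of Ldb1 (Lmo2tg; Ldb1-KO, written Ldb1-KO below, 5 at each stage). Lmo2 is a T-cell leukemia oncogene whose protein works in DNA-bound complexes held together by Ldb1. The study asks whether Ldb1 is needed for the effect of Lmo2 on thymocytes.

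Several facts limit these groups as models. The labels name Lck-Cre, Rag1-Cre and IL-7Ra-Cre lines and floxed Ldb1 among the mice of the study but do not say which Cre line each library carried, which promoter drives the transgene, how old the mice were, or whether the replicates were separate animals. P-values below therefore measure the spread between these libraries. WT libraries carry another series of library names than the transgenic ones, so library series and genotype cannot be told apart in any comparison with WT. The labels call all samples CD4 T cells while naming DN subsets. The 9 markers that define DN thymocytes summed to 3720 to 9570 CPM (a gene's count divided by the total of its library and scaled alike in all libraries) in the 28 libraries, and Cd4 lay between 0.751 and 1.32 CPM in WT DN2/3 and between 4.08 and 12 CPM in WT DN4. Comparisons were two-sided and used 1 edgeR fit over the 28 libraries, and a gene is called higher or lower where its Benjamini-Hochberg adjusted p fell below 0.05 over the 14371 genes tested, which included the 50.

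The genotypes were checked by their transcripts. Lmo2 lay at or below 0.410 CPM in the 8 WT libraries and between 25.3 and 68.9 CPM in the 20 transgenic ones. Ldb1 lay between 246.5 and 550.4 CPM in WT and Lmo2tg, between 57.1 and 120.0 CPM in Ldb1-KO DN2/3 and between 6.11 and 54.7 CPM in Ldb1-KO DN4. Total counts ran from 28.1 to 106.9 M counts per library. The DN4 libraries Lmo2tg replicate 1 and Ldb1-KO replicate 2 stood apart in Cd4, at 422 and 329 CPM, and the results that change without them are given below. The other transgenic DN4 libraries held 13.4 to 97.8 CPM of Cd4, also above the 4.08 to 12 CPM of WT DN4. Cd8a lay between 136 and 742.5 CPM in the transgenic DN4 libraries and between 19.7 and 57.5 CPM in WT DN4. In Lmo2tg DN4 replicate 1 the 7 B-cell markers summed to 97.2 CPM, against 11.1 to 14.7 CPM in WT DN4.

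As background, replication genes are transcribed in cells that cycle. At the G1 to S transition, cyclin-dependent kinases release the E2F factors, and many origin, helicase, polymerase and nucleotide synthesis genes are then transcribed together. In the thymus, DN3 cells that make a productive beta chain signal through the pre-T-cell receptor, enter the cell cycle and become DN4 cells, which divide rapidly before they become CD4 CD8 double-positive cells.

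Promoter sequences of 42 of the 50 genes were found in the RefSeq table for GRCm38.p6 (250 bases before to 50 bases after each start site). Both strands were searched for 4 E2F sequences, TTTCCCGC, TTTGGCGC, TTTCGCGC and TTTGCCGC, some of which overlap where they face each other. They were present in 17 of the 42 replication genes (40.5%), against 491 of 10723 genes tested that have a window (4.58%). Of all 27025 symbols of the RefSeq table, 704 held one (2.60%). A gene counts once if any of its windows holds a match, so genes with more start sites have more chances. With only the bases before the start site the count was 11 of 42 (26.2%), against 3.81% and 2.16%. The CCAAT box was present in 25 of 42 (59.5%), against 42.5% of genes tested. TTTGAA, the core of the cell cycle homology region of late cell cycle genes, was present in 7 of 42 (16.7%), against 14.3%. The sequences below show what these matches look like, in genes that moved and in 1 that did not. They read 5′ to 3′ on the strand of the gene, with the E2F matches in capitals. The first 5 are the 160 bases before the start site, and that of Orc3 is a stretch of 30 bases.
Mcm6, chr1:128359706-128359865, minus strand: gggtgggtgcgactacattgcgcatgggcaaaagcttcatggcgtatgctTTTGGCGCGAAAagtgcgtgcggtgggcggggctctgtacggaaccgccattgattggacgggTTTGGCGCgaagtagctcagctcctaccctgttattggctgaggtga
Mcm5, chr8:75109349-75109508, plus strand: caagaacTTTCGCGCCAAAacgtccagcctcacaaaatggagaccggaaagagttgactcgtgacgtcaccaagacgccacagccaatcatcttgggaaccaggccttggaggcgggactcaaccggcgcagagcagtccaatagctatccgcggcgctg
Cdc6, chr11:98907991-98908150, plus strand: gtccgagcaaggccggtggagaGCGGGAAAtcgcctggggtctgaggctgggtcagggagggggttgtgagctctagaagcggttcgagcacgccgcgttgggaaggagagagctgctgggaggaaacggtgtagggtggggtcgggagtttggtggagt
Pola1, chrX:93632156-93632315, minus strand: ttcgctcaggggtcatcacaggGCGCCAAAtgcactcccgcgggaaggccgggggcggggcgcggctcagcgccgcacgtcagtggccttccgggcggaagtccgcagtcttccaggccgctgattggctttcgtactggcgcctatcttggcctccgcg
Tyms, chr5:30073626-30073785, minus strand: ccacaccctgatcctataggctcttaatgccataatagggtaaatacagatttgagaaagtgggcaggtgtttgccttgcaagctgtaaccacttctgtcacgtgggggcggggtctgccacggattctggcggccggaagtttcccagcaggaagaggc
Orc3, chr4:34614965-34614994, minus strand: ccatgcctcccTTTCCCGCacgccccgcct

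Mcm6 and Mcm5, which encode helicase subunits, each held overlapping matches on both strands, and Mcm6 held another closer to the start. Cdc6, a licensing factor, and Pola1, the catalytic subunit of polymerase alpha, held 1 each. Tyms, thymidylate synthase, held none in this window, and Orc3, an origin recognition subunit, held 1 although it was called in none of the 12 comparisons. A match is a run of letters and not a measured binding site.

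In WT thymocytes the replication genes rose together from DN2/3 to DN4. The 50 genes summed to 10035, 8725, 8955 and 8880 CPM in WT DN2/3 replicates 1 to 4 and to 18029, 16176, 18145 and 16755 CPM in WT DN4. In Lmo2tg the sums were 7085, 13083, 8897, 12754 and 7511 CPM at DN2/3 and 5876, 12830, 8337, 15888 and 9179 CPM at DN4. In Ldb1-KO they were 7277, 8911, 9358, 9612 and 7697 CPM at DN2/3 and 13736, 12570, 13200, 14103 and 13274 CPM at DN4. All WT and Ldb1-KO DN4 libraries lay above every DN2/3 library of their genotype, whereas the Lmo2tg libraries of both stages overlapped. All 4 WT DN4 sums lay above all 5 of Lmo2tg DN4 and all 5 of Ldb1-KO DN4. The Lmo2tg libraries were also the most uneven: the highest DN4 sum was 2.70 times the lowest, against 1.12 times in WT DN4 and in Ldb1-KO DN4. Same-numbered libraries, which vary together within a genotype, gave a DN4 to DN2/3 ratio of 1.8 to 2.03 in WT, 0.83 to 1.25 in Lmo2tg and 1.41 to 1.89 in Ldb1-KO. In bulk libraries fewer cells in cycle and less RNA per cycling cell cannot be told apart.

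**Figure D1:**
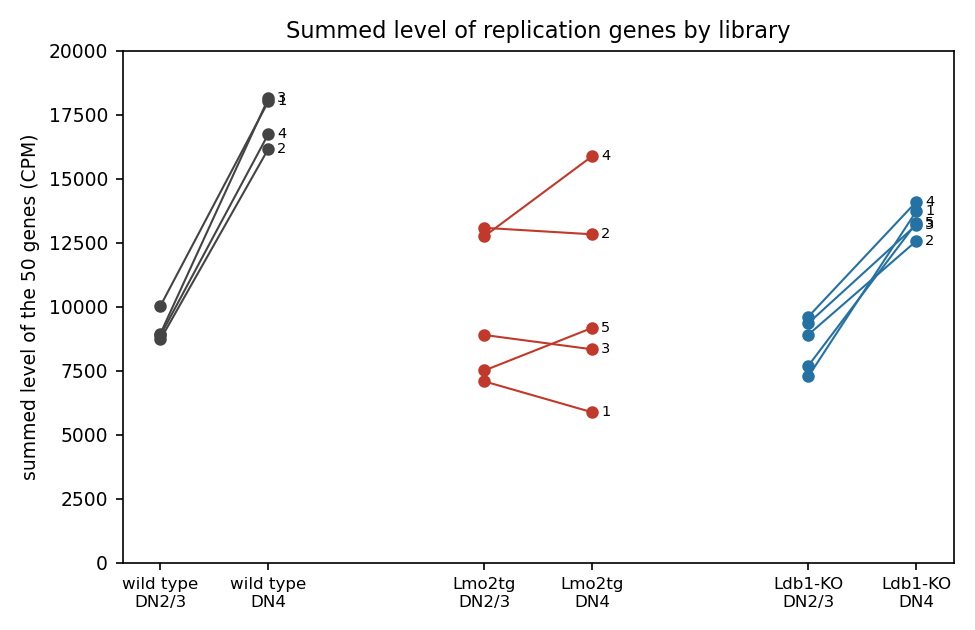
Summed level of the 50 replication genes (CPM, y axis) in each library, with lines joining same-numbered DN2/3 and DN4 libraries of a genotype. WT lines climb from 8725 to 10035 CPM up to 16176 to 18145 CPM, Ldb1-KO lines climb to 12570 to 14103 CPM, and Lmo2tg lines stay between 5876 and 15888 CPM.

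Counts of called genes followed the same order. From DN2/3 to DN4, 46 of 50 were higher and 0 lower in WT, where 21.1% of all genes tested rose and 24.8% fell, and the median log2 fold change was 0.94 against -0.06 over all genes tested. In Lmo2tg 2 of 50 were higher, Rrm2 and Rpa3, and 0 lower (8.32% of all genes rose and 7.04% fell), with a median of 0.08, and a fit of those 2 groups alone called 0 (1.41% of all genes rose). In Ldb1-KO 31 of 50 were higher and 0 lower (12.3% rose and 15.8% fell), with a median of 0.61. With replicate number as a block within each genotype, the counts higher were 48 in WT, 14 in Lmo2tg and 47 in Ldb1-KO, where 28.6%, 18.6% and 22.5% of all genes rose. In that paired fit 1 gene was lower at DN4 in Lmo2tg (20.1% of all genes): Pold1, the catalytic subunit of polymerase delta (log2 fold change -0.47 ± 0.15 SE, edgeR adjusted p = 0.021).

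At DN4, Lmo2tg lay below WT in 45 of 50 genes and above in 0 (23.5% of all genes tested fell and 28.9% rose). The median log2 fold change was -0.75, against 0.07 over all genes tested, and this corresponds to 0.593 of the WT level. Without the 2 libraries with high Cd4 the count was 38, and the share of all genes called in that refit is not given here. At DN2/3 the same comparison called 0 of 50 by edgeR and 0 by DESeq2, where 15.1% of all genes rose and 14.4% fell. Its median was 0.11, and 2 genes had an unadjusted p below 0.05. The effect of the transgene differed between the stages for 30 of 50 genes, all more negative at DN4 (11% of all genes were more negative and 14.7% less so), with a median difference of -0.85. The paired fit called 48, with 23.7% of all genes, a fit of the 4 groups compared called 7 (5.68%), and leaving out the 2 high-Cd4 libraries gave 13. Leaving out 1 library at a time gave 12 to 45 for the unpaired difference. It was lowest without Lmo2tg DN2/3 replicate 2 or 4 and highest without Lmo2tg DN4 replicate 4, and it also fell below 20 without WT DN2/3 replicate 2, 3 or 4, WT DN4 replicate 1 or 3, or Lmo2tg DN4 replicate 1, 3 or 5, with 14 to 18 genes.

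Part of the set was higher at DN4 where Ldb1 was deleted in the transgenic mice. Against Lmo2tg, 9 of 50 were higher and 0 lower at DN4 (5.85% of all genes rose and 8.71% fell), with a median log2 fold change of 0.36: Gins1, Gins3, Rfc5, Pold3, Prim1, Prim2, Rpa3, Rrm2 and Tyms. This count turned on single libraries. It was 32 without Lmo2tg DN4 replicate 4, 5 without Lmo2tg DN4 replicate 1 or 5 or Ldb1-KO DN4 replicate 2 or 3, 4 without the 2 high-Cd4 libraries and 2 in a fit of these 2 groups alone (2.04% of all genes). At DN2/3 edgeR and DESeq2 each called 0 of 50, where edgeR called 8.87% of all genes higher and 7.22% lower, and 1 gene had an unadjusted p below 0.05. The difference between the stages in the Ldb1 deletion effect called 0 of 50 in the unpaired fit (0.132% of all genes higher and 1.22% lower, with 12 of the 50 at an unadjusted p below 0.05 and 0 called by DESeq2). In the paired fit it called 47, all higher (6.25% of all genes), with a median of 0.58. Ldb1 itself lay at 57.1 to 120.0 CPM in Ldb1-KO DN2/3 and at 6.11 to 54.7 CPM in Ldb1-KO DN4. Stage and depth of the Ldb1 loss therefore cannot be told apart in this difference.

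Between Ldb1-KO and WT at DN4 the count of called genes depended on the fit. In the fit of all 6 groups 8 of 50 were lower and 0 higher, a share lower that is close to that of all genes tested (14.4% fell and 18.2% rose). The median log2 fold change was -0.38, against 0.03 over all genes tested, and the 8 were Gins4, Rfc2, Pola2, Pold2, Pold3, Fen1, Chaf1a and Chaf1b. A fit of these 2 groups alone, in which the uneven Lmo2tg libraries do not enter the spread, called 38 lower (21.7% of all genes), and DESeq2 called 13 (17.5%). Without 1 library the count ran from 2 to 11. It was 2 without WT DN4 replicate 3, 3 without WT replicate 1 or Ldb1-KO replicate 2, 4 without Ldb1-KO replicate 1 or 3, and 5 without WT replicate 4 or Ldb1-KO replicate 5. At DN2/3 the edgeR and DESeq2 fits of all 6 groups called 0 of 50 (6.98% of all genes rose and 2.58% fell by edgeR), with 0 at an unadjusted p below 0.05. The stage step of Ldb1-KO was smaller than that of WT in 47 of 50 genes. The edgeR and DESeq2 fits of all 6 groups called 0 of them (0.0348% of all genes lower and 0.181% higher, and 0 of the 50 at an unadjusted p below 0.05). The paired fit called 6, all lower, a share close to that of all genes (9.35%): Gmnn, Mcm10, Dut, Rrm1, Orc6 and Rpa1. The comparisons at a stage share their WT or Lmo2tg libraries.

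**Figure D2:**
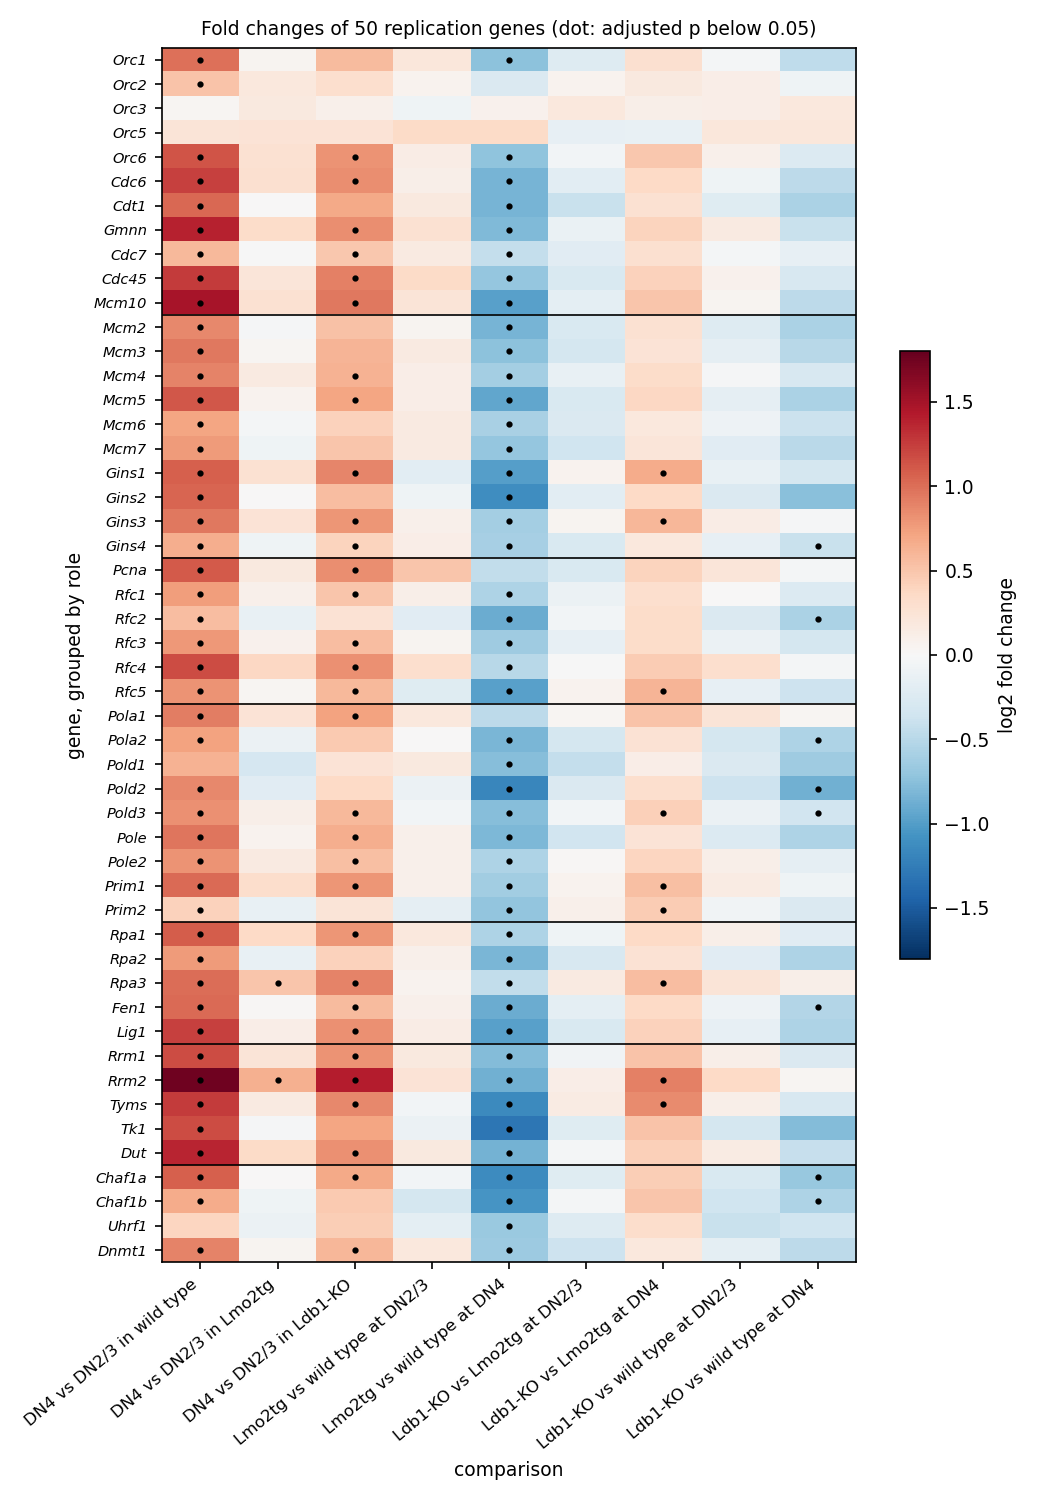
Log2 fold changes (colour) of the 50 replication genes (rows, grouped by role) in the main comparisons (columns). The column for Lmo2tg against WT at DN4 is negative for 48 of 50 genes, and that for DN4 against DN2/3 in WT is positive for 50 of 50.

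Origin recognition and licensing genes set the sites at which replication can start. Of the 11, 9 rose from DN2/3 to DN4 in WT and 6 in Ldb1-KO, and 8 were lower in Lmo2tg than in WT at DN4, with a median of -0.73. The origin recognition complex binds origins, Cdc6 and Cdt1 load the helicase onto it, geminin (Gmnn) blocks reloading, and Cdc7 kinase, Cdc45 and Mcm10 start the fork. Orc6, the smallest of the origin recognition subunits, measured 66.5, 63.2, 61.7 and 59.5 CPM at DN2/3 and 146, 138, 133 and 136 CPM at DN4 in WT. It measured 46.2, 97.3, 60.3, 88.6 and 51.2 CPM at DN2/3 and 48.4, 99, 85, 115 and 69.9 CPM at DN4 in Lmo2tg. Values in Ldb1-KO were 55.9, 69.5, 81.1, 62.4 and 63.7 CPM at DN2/3 and 108, 118, 128, 113 and 116 CPM at DN4. Every WT DN4 library lay above every library of the other 5 groups. The difference of Lmo2tg from WT at DN4 was -0.73 ± 0.19 SE (edgeR adjusted p = 0.00295), and the WT step was 1.14 ± 0.21 SE (edgeR adjusted p = 0.000102).

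Mcm10, which links Cdc45 and polymerase alpha at the starting fork, showed one of the larger steps. WT libraries gave 81.5, 65.1, 73.1 and 71.8 CPM at DN2/3 and 209, 190.3, 222 and 194 CPM at DN4. Those of Lmo2tg gave 46.8, 128, 68.2, 118 and 65.9 CPM at DN2/3 and 46.8, 139, 74.2, 163 and 92.9 CPM at DN4. Ldb1-KO libraries gave 58, 84.4, 83.2, 83.7 and 69 CPM at DN2/3 and 149.6, 142, 147, 148 and 146 CPM at DN4. The WT DN4 libraries lay above all others, the Ldb1-KO DN4 libraries lay within 142 to 149.6 CPM, and the Lmo2tg DN4 libraries spanned both sides of them. At DN4, Lmo2tg differed from WT by -0.98 ± 0.26 SE (edgeR adjusted p = 0.00299), the WT step was 1.48 ± 0.28 SE (edgeR adjusted p = 0.00016) and the Ldb1-KO step was 0.95 ± 0.25 SE (edgeR adjusted p = 0.00534).

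Orc3 showed no called change. WT libraries read 77.7, 121, 111 and 101 CPM at DN2/3 and 97.7, 108, 97.2 and 116 CPM at DN4. Lmo2tg libraries read 99.9, 117, 95.9, 90.8 and 85 CPM at DN2/3 and 108, 126, 140.5, 87.7 and 90.9 CPM at DN4. Ldb1-KO libraries read 103, 122, 131, 94.8 and 108 CPM at DN2/3 and 116, 135, 139, 97.6 and 109 CPM at DN4. The 6 groups overlapped, and none of the 12 comparisons called it. The DN4 change of Lmo2tg from WT was 0.08 ± 0.14 SE (edgeR adjusted p = 0.666), and the WT step was 0.03 ± 0.15 SE (edgeR adjusted p = 0.889). Orc5 and Orc2, further subunits of the complex, were also not called in Lmo2tg against WT at DN4, at 0.34 ± 0.15 SE (edgeR adjusted p = 0.0505) and -0.25 ± 0.16 SE (edgeR adjusted p = 0.181). Orc2 rose in the WT step (0.51 ± 0.17 SE, edgeR adjusted p = 0.0161), with 29.8% of its exon bases opposite Nif3l1 on the other strand.

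The replicative helicase unwinds DNA as the Mcm2 to Mcm7 ring with Cdc45 and the GINS complex (Gins1 to Gins4). All 10 rose in the WT step, 5 in the Ldb1-KO step and 0 in the Lmo2tg step, and all 10 were lower in Lmo2tg than in WT at DN4. Gins2 is uncertain among them, since 67.3% of its exon bases lie opposite Gse1. Per kilobase of the principal transcript, WT DN4 levels were 228.5 ± 14.6 CPM for Mcm2, 253.4 ± 19.8 for Mcm3, 171.9 ± 3.00 for Mcm4, 251.2 ± 23.4 for Mcm5, 399.2 ± 24.7 for Mcm6 and 311.1 ± 27.9 for Mcm7 (SD, n = 4). On this length Mcm6 stood highest and Mcm4 lowest, while Mcm2, Mcm3 and Mcm5 did not differ beyond their spread. With the length of all annotated exons Mcm6 still had the highest mean (249.0 CPM per kilobase), but Mcm2 was lowest (110.7), below Mcm4 (171.9), Mcm3 (204.7), Mcm7 (208.2) and Mcm5 (212.7), so the order below Mcm6 depends on the length used. In Lmo2tg DN4 they were 127.8 ± 60.7, 151.2 ± 71.9, 112.7 ± 36.5, 131.2 ± 69.9, 267.3 ± 94.1 and 191.9 ± 94.1 CPM per kilobase in the same order (SD, n = 5).

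Gins4 and Gins1 had the smallest adjusted p of the helicase genes, and Mcm7 the largest. Gins4 measured 56, 48.9, 47.1 and 46.7 CPM at DN2/3 and 84, 73.7, 80.4 and 73.2 CPM at DN4 in WT. Lmo2tg libraries measured 47.5, 63.7, 52.5, 59.6 and 47.6 CPM at DN2/3 and 41.1, 59.9, 43.5, 69 and 43.9 CPM at DN4. Ldb1-KO libraries measured 40.2, 44.3, 48.9, 48.5 and 42.1 CPM at DN2/3 and 60.0, 56.9, 56.4, 63.1 and 58.3 CPM at DN4. The WT DN4 libraries lay above all Lmo2tg and Ldb1-KO DN4 libraries. Between Lmo2tg and WT at DN4 the difference was -0.60 ± 0.12 SE (edgeR adjusted p = 0.000344), Ldb1-KO against WT was -0.40 ± 0.12 SE (edgeR adjusted p = 0.0164), and the WT step was 0.65 ± 0.13 SE (edgeR adjusted p = 0.000313). Gins1 read 40.6, 34.9, 32.7 and 28.7 CPM at DN2/3 and 84.6, 69.4, 67.8 and 65.8 CPM at DN4 in WT. It read 18.1, 43.4, 25.3, 40.3 and 22.4 CPM at DN2/3 and 17.1, 43.3, 33.8, 53.7 and 33.2 CPM at DN4 in Lmo2tg. It read 24.9, 33.1, 37.1, 32.8 and 27.8 CPM at DN2/3 and 56.8, 57.1, 60.0, 59 and 54.6 CPM at DN4 in Ldb1-KO. All Ldb1-KO DN4 libraries lay above all Lmo2tg DN4 libraries and below all of WT DN4. At DN4 the Lmo2tg to WT change was -0.99 ± 0.23 SE (edgeR adjusted p = 0.00115), and Ldb1-KO against Lmo2tg was 0.67 ± 0.22 SE (edgeR adjusted p = 0.0432).

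Mcm7, with the largest p of the helicase genes, still fell. WT libraries gave 639, 513, 508 and 500.5 CPM at DN2/3 and 1007, 865, 976 and 838 CPM at DN4. Lmo2tg libraries gave 422, 782, 545, 805 and 454 CPM at DN2/3 and 295, 717, 372, 978 and 480.0 CPM at DN4. Ldb1-KO libraries gave 421, 465, 480.5, 563 and 418 CPM at DN2/3 and 668, 591, 610.2, 783 and 653 CPM at DN4. Lmo2tg DN4 replicate 4 lay among the WT DN4 libraries and the other 4 below them. The difference was -0.70 ± 0.24 SE (edgeR adjusted p = 0.016), and the WT step was 0.77 ± 0.25 SE (edgeR adjusted p = 0.0146).

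The sliding clamp Pcna holds polymerases on DNA and is loaded by replication factor C (Rfc1 to Rfc5). All 6 rose in the WT step and 5 in the Ldb1-KO step, and 5 were lower in Lmo2tg than in WT at DN4, Pcna being the one not called. Rfc5 measured 93.2, 80.6, 81.9 and 76.9 CPM at DN2/3 and 148, 134, 161 and 141 CPM at DN4 in WT. In Lmo2tg it measured 54.9, 95.8, 62.9, 90.7 and 54.4 CPM at DN2/3 and 47.6, 91.7, 57.6, 108 and 64.5 CPM at DN4. In Ldb1-KO it measured 62.3, 81, 83.6, 78.6 and 70.3 CPM at DN2/3 and 112, 109, 116, 117 and 111 CPM at DN4. All 5 Ldb1-KO DN4 libraries lay above all 5 of Lmo2tg DN4 and below all 4 of WT DN4. At DN4, Lmo2tg differed from WT by -0.98 ± 0.18 SE (edgeR adjusted p = 0.000107), and Ldb1-KO against Lmo2tg was 0.61 ± 0.17 SE (edgeR adjusted p = 0.0166). Rfc5 shares 10.7% of its exon bases with Wsb2 on the other strand, and the kit does not mark strand.

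Rfc2, another loader subunit, stayed low in both transgenic genotypes. WT libraries gave 171, 126, 131 and 124 CPM at DN2/3 and 219.7, 185, 209 and 199 CPM at DN4. Lmo2tg libraries gave 94.2, 131, 117, 148 and 108 CPM at DN2/3 and 73.2, 116, 84.8, 166 and 104 CPM at DN4. Ldb1-KO libraries gave 108, 111, 114, 135 and 107 CPM at DN2/3 and 138, 123, 121, 162 and 142 CPM at DN4. All 10 transgenic DN4 libraries lay below all 4 of WT DN4. The DN4 change of Lmo2tg from WT was -0.90 ± 0.17 SE (edgeR adjusted p = 0.000109), and Ldb1-KO against WT was -0.56 ± 0.17 SE (edgeR adjusted p = 0.0131). An antisense overlap with Lat2 covers 15.1% of its exon bases. Pcna read 464, 448, 479 and 467 CPM at DN2/3 and 978, 919, 1022 and 1082 CPM at DN4 in WT. It read 422, 958, 578, 796 and 516 CPM at DN2/3 and 421, 966, 619, 1014 and 665 CPM at DN4 in Lmo2tg. It read 423, 562, 633, 587 and 503 CPM at DN2/3 and 917, 969.9, 1002, 976 and 993 CPM at DN4 in Ldb1-KO. The WT and Ldb1-KO DN4 libraries overlapped, and 2 of the 5 Lmo2tg DN4 libraries reached the same range. Between Lmo2tg and WT at DN4 the difference was -0.44 ± 0.20 SE (edgeR adjusted p = 0.0676), while the WT step was 1.11 ± 0.22 SE (edgeR adjusted p = 0.000214) and the Ldb1-KO step 0.84 ± 0.19 SE (edgeR adjusted p = 0.00177). Pcna shares 10% of its 101-base stretches with the pseudogene Pcna-ps2, so its reads may be split.

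Polymerase alpha with primase (Pola1, Pola2, Prim1, Prim2) starts each DNA strand, and polymerases delta and epsilon extend it. Of these 9 genes, 8 rose in the WT step, 5 in the Ldb1-KO step and 0 in the Lmo2tg step, and 8 were lower in Lmo2tg than in WT at DN4. Pold3, an accessory subunit of polymerase delta, had the smallest p of all 50 in that comparison. WT libraries gave 115, 104, 116 and 116 CPM at DN2/3 and 210.5, 185, 201 and 200 CPM at DN4. Lmo2tg libraries gave 92.6, 122, 109, 128 and 93.5 CPM at DN2/3 and 81.7, 123, 119, 151 and 112 CPM at DN4. Ldb1-KO libraries gave 94.5, 104, 112, 108 and 106 CPM at DN2/3 and 169, 152, 159, 149 and 158 CPM at DN4. The 3 genotypes separated at DN4 except for Lmo2tg replicate 4, which lay among the Ldb1-KO libraries. Lmo2tg against WT was -0.76 ± 0.12 SE (edgeR adjusted p = 1.2e-05), Ldb1-KO against Lmo2tg was 0.42 ± 0.11 SE (edgeR adjusted p = 0.0103), and Ldb1-KO against WT was -0.34 ± 0.12 SE (edgeR adjusted p = 0.0284).

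Prim2, the large primase subunit, took the smallest WT step of the called genes of its role. Its WT values were 78.1, 82.6, 83.2 and 68.8 CPM at DN2/3 and 104, 105, 109 and 99.6 CPM at DN4. Its Lmo2tg values were 56.6, 83, 63.9, 89.4 and 56.2 CPM at DN2/3 and 41.9, 77, 52.4, 93.1 and 53.8 CPM at DN4. Its Ldb1-KO values were 74.2, 76, 69.3, 75.5 and 78.5 CPM at DN2/3 and 87.3, 80.2, 89.9, 93 and 86.7 CPM at DN4. WT DN4 lay above all other groups, and Lmo2tg DN4 overlapped Lmo2tg DN2/3. At DN4 the Lmo2tg to WT change was -0.72 ± 0.16 SE (edgeR adjusted p = 0.000742), and Ldb1-KO against Lmo2tg was 0.46 ± 0.15 SE (edgeR adjusted p = 0.0434). Pola1 was not called between Lmo2tg and WT. WT values were 74.2, 97.2, 101 and 102 CPM at DN2/3 and 171, 179, 173 and 186 CPM at DN4. Lmo2tg values were 71.5, 181, 94.1, 121 and 67.5 CPM at DN2/3 and 73.6, 189.8, 135, 143 and 95.3 CPM at DN4. Ldb1-KO values were 88.5, 123, 148, 101 and 87.6 CPM at DN2/3 and 185, 189, 232, 146 and 153 CPM at DN4. Lmo2tg DN4 replicate 2 lay above every WT DN4 library and the other 4 lay below them. The difference was -0.48 ± 0.25 SE (edgeR adjusted p = 0.105), and the WT step was 0.92 ± 0.26 SE (edgeR adjusted p = 0.00603). Pold2, a delta subunit, had the most negative change of this role, at -1.17 ± 0.27 SE (edgeR adjusted p = 0.00107).

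Replication protein A (Rpa1 to Rpa3) coats single-stranded DNA, Fen1 trims Okazaki fragments and Lig1 joins them. All 5 rose in the WT step and were lower in Lmo2tg than in WT at DN4, with a median of -0.82. Fen1 measured 129, 104, 106 and 115 CPM at DN2/3 and 231, 208, 247 and 232 CPM at DN4 in WT. Lmo2tg values were 85.1, 158, 119.8, 150.5 and 91.5 CPM at DN2/3 and 68.8, 157, 93.7, 184 and 114 CPM at DN4. Ldb1-KO values were 88.5, 112, 109, 128 and 96 CPM at DN2/3 and 167, 143, 144, 181 and 157 CPM at DN4. All transgenic DN4 libraries lay below all WT DN4 libraries. Lmo2tg against WT was -0.90 ± 0.20 SE (edgeR adjusted p = 0.000822), and Ldb1-KO against WT was -0.53 ± 0.20 SE (edgeR adjusted p = 0.0453). Fen1 is uncertain in these counts, since 84.2% of its exon bases lie opposite Gm10143 or Tmem258 on the other strand.

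Rpa2, the middle subunit, showed the same order. WT values were 137, 112, 107 and 107 CPM at DN2/3 and 227, 188, 198 and 177 CPM at DN4. Those in Lmo2tg were 86.8, 157, 118, 165 and 90.5 CPM at DN2/3 and 58.8, 131, 84.6, 187 and 100.2 CPM at DN4. Those in Ldb1-KO were 90.2, 101, 106, 119.8 and 86.4 CPM at DN2/3 and 134, 123, 127, 156 and 129.8 CPM at DN4. Lmo2tg DN4 replicate 4 lay among the WT DN4 libraries, and the other transgenic DN4 libraries lay below them. At DN4, Lmo2tg differed from WT by -0.82 ± 0.22 SE (edgeR adjusted p = 0.0035). Rpa3, the small subunit, departed from it and was 1 of the 2 genes that rose in the Lmo2tg step. WT values were 26.6, 31.2, 32.4 and 30.4 CPM at DN2/3 and 57.7, 66, 57.5 and 61.5 CPM at DN4. Lmo2tg values were 25.2, 42.6, 30.6, 33.6 and 25.9 CPM at DN2/3 and 37, 48.6, 57.1, 47.9 and 31.6 CPM at DN4. Ldb1-KO values were 30.1, 36.7, 46.4, 28.5 and 34.8 CPM at DN2/3 and 61, 75, 81.6, 48 and 61.4 CPM at DN4. The Ldb1-KO DN4 libraries spread around those of WT DN4. The Lmo2tg step was 0.49 ± 0.16 SE (edgeR adjusted p = 0.0411), and Lmo2tg against WT at DN4 was -0.45 ± 0.17 SE (edgeR adjusted p = 0.0311).

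**Figure D3:**
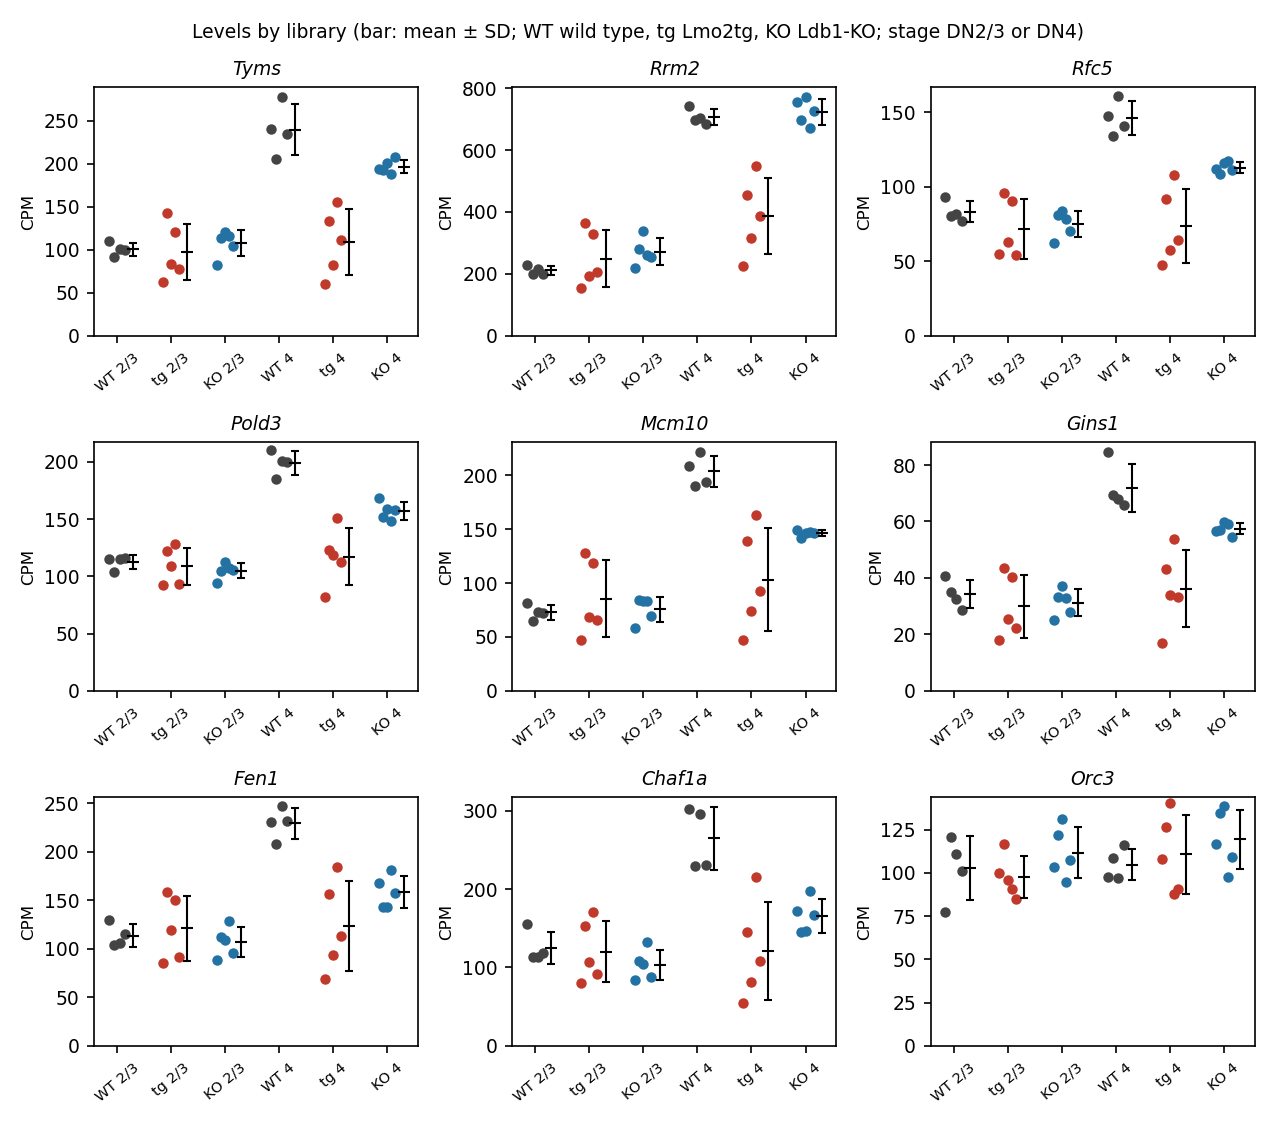
Level (CPM) in each library of selected replication genes, by group, with libraries in replicate order. Rrm2 in Ldb1-KO DN4 lies at 669.9 to 771 CPM, overlapping WT DN4, while Chaf1a in Ldb1-KO DN4 lies at 145 to 198 CPM, below every WT DN4 library.

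Nucleotide synthesis genes supply deoxynucleotides: ribonucleotide reductase (Rrm1, Rrm2) makes them, thymidylate synthase (Tyms) and thymidine kinase (Tk1) make the thymidine nucleotide, and Dut removes dUTP. All 5 rose in the WT step, 4 in the Ldb1-KO step and 1 in the Lmo2tg step, and all 5 were lower in Lmo2tg than in WT at DN4. Rrm2, the regulated small subunit, had the largest WT step of the 50. WT libraries gave 228, 199, 216 and 201 CPM at DN2/3 and 743, 697, 703 and 684 CPM at DN4. Lmo2tg libraries gave 154, 366, 193, 329 and 205 CPM at DN2/3 and 227, 455, 317, 548 and 386 CPM at DN4. Ldb1-KO libraries gave 219, 282, 338, 262 and 255 CPM at DN2/3 and 754, 696, 771, 669.9 and 727 CPM at DN4. The Ldb1-KO DN4 libraries overlapped those of WT DN4, and all 5 lay above all 5 of Lmo2tg DN4. The step was 1.74 ± 0.23 SE (edgeR adjusted p = 2.02e-06) in WT, 0.63 ± 0.20 SE (edgeR adjusted p = 0.0287) in Lmo2tg and 1.42 ± 0.20 SE (edgeR adjusted p = 1.08e-05) in Ldb1-KO. At DN4, Lmo2tg against WT was -0.87 ± 0.21 SE (edgeR adjusted p = 0.00125), Ldb1-KO against Lmo2tg was 0.90 ± 0.20 SE (edgeR adjusted p = 0.00254) and Ldb1-KO against WT was 0.03 ± 0.21 SE (edgeR adjusted p = 0.918).

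Tyms moved in the same order. WT libraries gave 110.3, 91.3, 101 and 99.8 CPM at DN2/3 and 241, 206, 278 and 235 CPM at DN4. Lmo2tg libraries gave 62.8, 142, 83.2, 121 and 77.8 CPM at DN2/3 and 60.0, 133, 82.7, 156 and 112 CPM at DN4. Ldb1-KO libraries gave 82.5, 114, 121, 116 and 105 CPM at DN2/3 and 194, 193, 200.5, 189 and 208 CPM at DN4. All 5 Ldb1-KO DN4 libraries lay above all 5 of Lmo2tg DN4, and 1 lay above the lowest WT DN4 library. The DN4 change of Lmo2tg from WT was -1.14 ± 0.21 SE (edgeR adjusted p = 0.000103), and Ldb1-KO against Lmo2tg was 0.86 ± 0.20 SE (edgeR adjusted p = 0.00438). Rrm1, the large reductase subunit, measured 355, 339, 348 and 332 CPM at DN2/3 and 801, 732, 804 and 776 CPM at DN4 in WT. Lmo2tg libraries measured 243, 589, 334, 498 and 271 CPM at DN2/3 and 257, 589, 408, 626 and 386 CPM at DN4. Ldb1-KO libraries measured 307, 401, 434, 384 and 323 CPM at DN2/3 and 674, 638, 713, 600.2 and 609 CPM at DN4. All transgenic DN4 libraries lay below all of WT DN4. Between Lmo2tg and WT at DN4 the difference was -0.78 ± 0.21 SE (edgeR adjusted p = 0.00386), and Ldb1-KO against Lmo2tg was 0.51 ± 0.20 SE (edgeR adjusted p = 0.0925). Tk1 had the most negative change of the 50 in Lmo2tg against WT at DN4, at -1.30 ± 0.32 SE (edgeR adjusted p = 0.00168).

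Chromatin assembly factor 1 (Chaf1a, Chaf1b) places histones on new DNA, and Uhrf1 with Dnmt1 copies DNA methylation. Of the 4, 3 rose in the WT step and 2 in the Ldb1-KO step, and all 4 were lower in Lmo2tg than in WT at DN4. Chaf1b measured 119, 94.6, 92.5 and 86.3 CPM at DN2/3 and 175, 149, 162 and 138 CPM at DN4 in WT. Lmo2tg values were 51.8, 95.7, 71.7, 105 and 69.6 CPM at DN2/3 and 39.7, 85.8, 52.5, 118 and 77.1 CPM at DN4. Ldb1-KO values were 64.6, 80.8, 80.1, 88 and 69.4 CPM at DN2/3 and 109, 96.1, 100.2, 121 and 103 CPM at DN4. All transgenic DN4 libraries lay below all of WT DN4. Lmo2tg against WT was -1.07 ± 0.21 SE (edgeR adjusted p = 0.000244), and Ldb1-KO against WT was -0.56 ± 0.21 SE (edgeR adjusted p = 0.0441). Chaf1a read 156, 113, 113 and 118 CPM at DN2/3 and 303, 230.0, 296 and 231 CPM at DN4 in WT. It read 80.4, 153, 107, 170.4 and 91.6 CPM at DN2/3 and 55.1, 146, 81.9, 216 and 108 CPM at DN4 in Lmo2tg. It read 84.4, 108, 104, 133 and 88.2 CPM at DN2/3 and 172, 145, 146, 198 and 166 CPM at DN4 in Ldb1-KO. All transgenic DN4 libraries again lay below all of WT DN4. An antisense overlap with Ubxn6 covers 52.5% of its exon bases. At DN4 the Lmo2tg to WT change was -1.13 ± 0.26 SE (edgeR adjusted p = 0.00102), and Ldb1-KO against WT was -0.68 ± 0.26 SE (edgeR adjusted p = 0.0475).

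Dnmt1, the maintenance methyltransferase, had the largest p of its role. WT libraries gave 646, 547, 569 and 624 CPM at DN2/3 and 1081, 1040, 1181 and 1139 CPM at DN4. Lmo2tg libraries gave 446, 817, 622, 956 and 562 CPM at DN2/3 and 371, 801, 528, 1148 and 663 CPM at DN4. Ldb1-KO libraries gave 450.5, 556, 559, 642 and 428 CPM at DN2/3 and 868, 716, 774, 904 and 741 CPM at DN4. Lmo2tg DN4 replicate 4 lay among the WT DN4 libraries and the other transgenic DN4 libraries below them. At DN4, Lmo2tg differed from WT by -0.66 ± 0.22 SE (edgeR adjusted p = 0.0138), and the WT step was 0.90 ± 0.23 SE (edgeR adjusted p = 0.00298).

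The members varied together from library to library as well as between groups. After the group means were removed, each gene was correlated with the mean of the other 49 over the 28 libraries. All 50 genes of a library share its depth and composition. The SD of the summed level was 2868 CPM in Lmo2tg DN2/3 and 3944 CPM in Lmo2tg DN4, against 581 to 1032 CPM in the other groups. Lmo2tg libraries therefore weigh most in r, and r within a single genotype was not computed. The median r was 0.94, and 35 of 50 genes reached 0.9. Orc5 (-0.07) and Orc3 (-0.06) stood outside, followed by Rpa3 (0.43) and Orc2 (0.53). The sizes of the steps were also ordered alike: across the 50 genes the WT and Ldb1-KO steps correlated at r = 0.92, those of WT and Lmo2tg at 0.55 and those of Lmo2tg and Ldb1-KO at 0.74, as descriptions over genes that are not independent. The WT step exceeded that of Ldb1-KO in 47 genes, and the Ldb1-KO step exceeded that of Lmo2tg in 49. In WT, 22 genes rose by more than 1 on the log2 scale, against 1 in Ldb1-KO (Rrm2) and 0 in Lmo2tg.

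**Figure D4:**
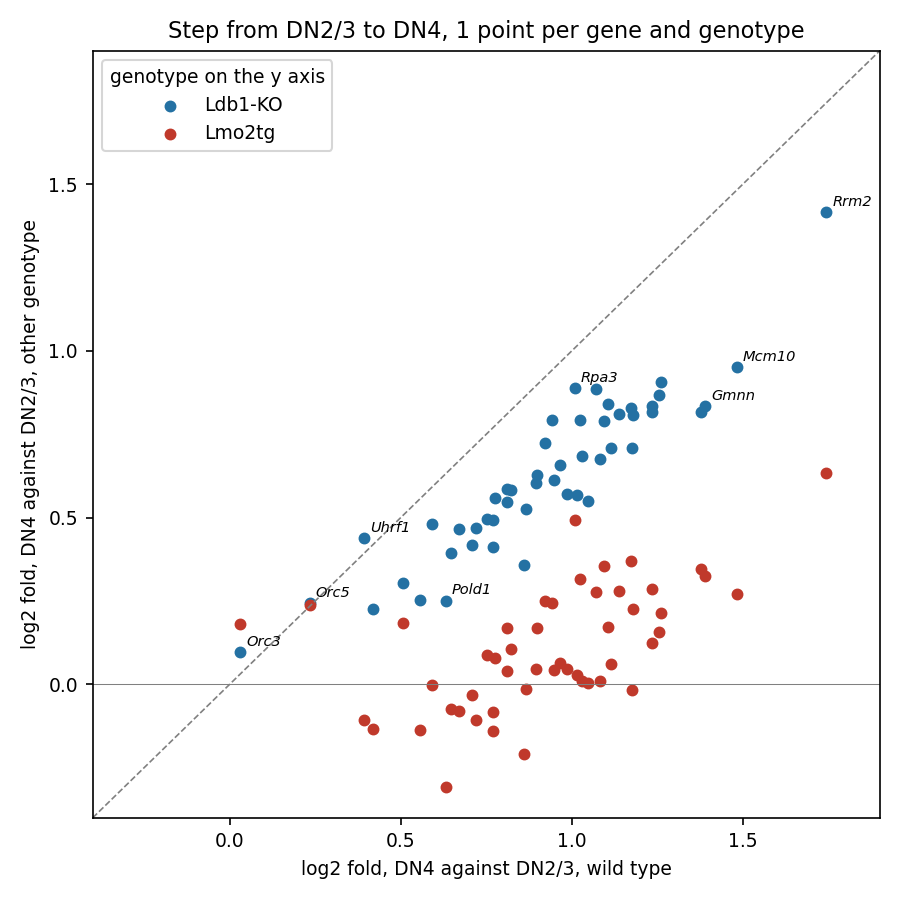
Log2 fold change from DN2/3 to DN4 in WT (x axis) against that in Lmo2tg and in Ldb1-KO (y axis), 1 point per gene, with the line of equal change. Ldb1-KO points lie close under the line (47 of 50 below it), and 48 of 50 Lmo2tg points lie below it, most near 0.

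Replication genes outside the 50 were read from lists chosen by function. For scale, 23.5% of all genes tested fell and 28.9% rose in Lmo2tg against WT at DN4, and 21.1% rose in the WT step. Of 28 other fork and origin genes, 15 were lower and 2 higher in Lmo2tg than in WT at DN4 (median -0.47), and 23 rose in the WT step. Dna2, a nuclease-helicase of Okazaki processing, fell by 1.13 on the log2 scale (± 0.18 SE, edgeR adjusted p = 1.66e-05), and Mcmbp, an Mcm-binding protein, by 0.47 (± 0.09 SE, edgeR adjusted p = 0.000179). The 2 higher were Orc4 (0.76 ± 0.20 SE, edgeR adjusted p = 0.00237) and Pold4 (0.57 ± 0.23 SE, edgeR adjusted p = 0.0412). Of 30 other nucleotide genes, 19 were lower and 6 higher (median -0.70). Dctd, which deaminates dCMP, fell by 1.55 (± 0.16 SE, edgeR adjusted p = 6.55e-08), and Dhodh, the mitochondrial pyrimidine enzyme, by 0.92 (± 0.12 SE, edgeR adjusted p = 1.06e-06). The 6 higher included Rrm2b, the p53-induced reductase subunit (0.97), Tk2 and Dguok, the mitochondrial kinases (0.59 and 0.31), and Samhd1, which degrades deoxynucleotides (3.10).

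Of 13 other chromatin genes, 6 were lower and 0 higher in Lmo2tg than in WT at DN4 (23.5% of all genes fell and 28.9% rose). All 13 rose in the WT step (21.1% of all genes). Cdca7, a partner of the remodeller Hells, fell by 0.78 (± 0.17 SE, edgeR adjusted p = 0.000479), and Ssrp1, a FACT subunit, by 0.64 (± 0.14 SE, edgeR adjusted p = 0.000867). Of 23 genes of the wider cell cycle, 17 were lower and 3 higher (median -0.82), and 18 had a more negative transgene effect at DN4 than at DN2/3 (11% of all genes). The 3 higher were antiproliferative: Btg1 (3.07 ± 0.34 SE, edgeR adjusted p = 1.16e-07), Cdkn1b, which encodes p27 (1.33 ± 0.15 SE, edgeR adjusted p = 2.66e-07), and Cdkn2d (0.78 ± 0.14 SE, edgeR adjusted p = 7.28e-05). Against Lmo2tg, Ldb1-KO DN4 had 11 of the 23 higher and 0 lower, where 5.85% of all genes rose. The shares higher in the other lists, 2 of 28, 2 of 30 and 1 of 13, were close to that of all genes. Btg1 in the Lmo2tg DN4 libraries ran 723, 363, 431, 131 and 254 CPM in replicates 1 to 5. Replicate 4, with the highest replication sum of the 5, had the lowest Btg1. Replicate 1, with the lowest sum, had the highest Btg1 and was also the high-Cd4 library of this group. Replicate 2 had more Btg1 than replicate 5 although its sum was also higher (12830 against 9179 CPM).

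Markers of several other cells moved with the same comparison. In Lmo2tg against WT at DN4 all 7 measured mature T-cell markers, all 7 B-cell markers and 4 of 7 double-positive markers were higher. Of all genes tested, 28.9% were higher there. The mature T-cell markers summed to 740.0 to 1930 CPM in Lmo2tg DN4, 740.0 to 890.0 in Ldb1-KO DN4 and 300 to 429 in WT DN4, and the double-positive markers to 1110 to 3630, 1100 to 3240 and 1000 to 1170 CPM. B-cell markers summed to 12.4 to 97.2 CPM in Lmo2tg DN4 and 11.1 to 14.7 in WT DN4, so their libraries overlapped. Of these 7 markers, 1 was at 0 in every WT DN4 library. The rise was uneven: Ms4a1 ran 17.6, 0.888, 4.48, 0.0479 and 3.64 CPM in Lmo2tg DN4 replicates 1 to 5. Of 4 myeloid markers tested 3 were higher, and all 8 in the table summed to 1.53 to 9.57 CPM in Lmo2tg DN4 and 0.349 to 0.431 CPM in WT DN4. Of 3 gamma-delta T-cell markers tested, 2 were higher, and the 3 summed to 82.3 to 418 CPM in Lmo2tg DN4, 27.4 to 172 in Ldb1-KO DN4 and 57.8 to 128 in WT DN4. The 9 markers that define DN thymocytes were lower. They summed to 3720 to 5060 CPM in Lmo2tg DN4, 4660 to 5460 in Ldb1-KO DN4 and 5410 to 6040 in WT DN4. Markers of the DN2/3 stage summed to 602 to 1440 CPM in Lmo2tg DN4 and 689 to 764 in WT DN4, which overlapped. The remaining lists also overlapped between Lmo2tg DN4 and WT DN4. Sums were 260 to 503 and 377 to 522 CPM for NK and innate lymphoid markers, and 6.95 to 13.6 and 11.6 to 15.9 for thymic stroma. They were 0.364 to 4.62 and 0.222 to 0.469 CPM for dendritic markers, and 0.668 to 1.36 and 0.888 to 1.33 for erythroid markers. The part of such other cells in the lower replication gene levels was not tested, beyond the counts without the 2 high-Cd4 libraries given above. Those counts keep transgenic DN4 libraries whose Cd4 and Cd8a also lay above WT DN4.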

How the data were processed

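RNA-seq counts of 28 mouse thymocyte libraries were analysed, 4 or 5 per group. Per the submitters' processing notes, reads were aligned with STAR 2.5.2a to mm10 and counted with featureCounts 1.4.6-p3. The TruSeq RNA Sample Prep V2 kit does not mark strand, so reads of overlapping antisense genes cannot be told apart. The values deposited by the authors are raw counts per gene symbol, 28.1 to 106.9 M per library. CPM was computed from these counts, divided by each library's total over the genes tested times its TMM scaling factor (0.93 to 1.056). No replicate pair agreed within sampling noise.

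One model was fitted with edgeR 4.0.16 in R 4.3.3 (quasi-likelihood F-test, TMM scaling, filterByExpr, robust, Benjamini-Hochberg) over 6 groups and 14371 genes, with 12 comparisons, and all 50 genes passed the filter on low counts. The members and lists were chosen with earlier results of these data known. Library values are given for the 2 genes of each role with the smallest adjusted p in Lmo2tg against WT at DN4 and the one with the largest. Deviations from group means correlated between same-numbered DN2/3 and DN4 libraries in all 14 pairs (r 0.15 to 0.65), so stage comparisons were also fitted with replicate number as a block within genotype. Between WT and the transgenic genotypes no library matched best with its own number (r -0.18 to 0.097). Between Lmo2tg and Ldb1-KO, 2 of 5 did at DN2/3 (r 0.029 to 0.2) and 2 of 5 at DN4 (r -0.075 to 0.34). Whether same-numbered Lmo2tg and Ldb1-KO libraries form a shared set was not tested. DESeq2 1.42.0, other scalings, no filter, fits of the compared groups only, a block across all groups and leaving out single libraries were tried as alternatives. Leaving out the libraries above 300 CPM of Cd4, and exon lengths over all transcripts, were added after seeing the data. Gene positions and overlaps came from GENCODE M21, which held 23376 of the symbols, and promoters from RefSeq.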

Additional observations from a re-analysis of the deposited data

Results flagged for a closer look

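The effect of the Lmo2 transgene differed between the stages for 30 of the 50 replication genes, all more negative at DN4, where 11% of all genes tested were more negative and 14.7% less so. The count was 7 in a fit of the 4 groups compared, 13 without the 2 high-Cd4 libraries and 12 to 45 when 1 library was left out. In the fit with replicate number as a block within genotype, the effect of Ldb1 deletion differed between the stages for 47, all higher at DN4 (6.25% of all genes). In the same fit the stage step of Ldb1-KO was smaller than that of WT for 6, close to the share of all genes (9.35%). Without the block, the edgeR and DESeq2 fits of all 6 groups called 0 of 50 in both of these comparisons. Fits of the compared groups only and refits without single libraries are given below.

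Single libraries stood apart within their group in 6 of the 132 gene and group sets of 4 or 5 libraries that were examined, and chance gives about 1 in 20. WT DN2/3 replicate 1 was highest for Mcm7 (639 CPM), Rfc2 (171 CPM), Rpa2 (137 CPM) and Chaf1a (156 CPM). WT DN2/3 replicate 2 was lowest for Pold3 (104 CPM), and Ldb1-KO DN2/3 replicate 4 was highest for Rfc2 (135 CPM).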

How the results depend on the processing

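Counts of called replication genes moved by over 1.5 times in these settings. In fits of the compared groups only they were 2 for Ldb1-KO against Lmo2tg at DN4 (9 in the full fit), 2 for Ldb1-KO against WT at DN2/3 (0), 38 for Ldb1-KO against WT at DN4 (8), 0 for the Lmo2tg step (2), 7 for the stage difference of the Lmo2tg effect (30) and 5 for the Ldb1-KO step against that of WT (0). With replicate number as a block within genotype they were 15 for the Lmo2tg step, 47 for the Ldb1-KO step (31), 48 for the stage difference of the Lmo2tg effect, 47 for that of the Ldb1 deletion effect (0) and 6 for the Ldb1-KO step against that of WT. The 109 values of single genes already called in the stage comparisons stayed called in the same direction under this block. Its added calls include Pold1 in the Lmo2tg step and those counted above. A replicate block across all groups gave 2 for Lmo2tg against WT at DN2/3 (0), 15 for Ldb1-KO against Lmo2tg at DN4 and 13 for Ldb1-KO against WT at DN4. DESeq2 gave 13 for the last of these, and no filter on low counts gave 1 for the Lmo2tg step. Without the libraries above 300 CPM of Cd4, the counts were 4 for Ldb1-KO against Lmo2tg at DN4 and 13 for the stage difference of the Lmo2tg effect. Apart from the groups and samples each setting uses, the cause was not tested. Shares of all genes called are not set beside counts from refits without single or high-Cd4 libraries, or with the block across all groups. Those counts therefore cannot be told from a general change in calls.

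Leaving out 1 library gave 39 to 48 for Lmo2tg against WT at DN4 and 0 to 1 at DN2/3, 5 to 32 for Ldb1-KO against Lmo2tg at DN4, 2 to 11 for Ldb1-KO against WT at DN4, 44 to 46 for the WT step, 0 to 5 for the Lmo2tg step, 24 to 33 for the Ldb1-KO step, 12 to 45 for the stage difference of the Lmo2tg effect and 0 to 5 for that of the Ldb1 deletion effect. In the other 3 comparisons it gave 0 throughout. Over 1850 refits of a named value, each without 1 library, the call was lost in 310 and gained in 6, and the direction reversed in 1: Orc3 in Lmo2tg against WT at DN4, which ran from -0.0208 without Lmo2tg DN4 replicate 3 to 0.152 without replicate 4. Fits of the compared groups only ended the call of 45 of 176 named values.

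The E2F count was 11 with only the bases before the start site. With the length of all annotated exons, WT DN4 levels per kilobase were 110.7 CPM for Mcm2, 204.7 for Mcm3, 171.9 for Mcm4, 212.7 for Mcm5, 249.0 for Mcm6 and 208.2 for Mcm7, so Mcm2 took the place of Mcm4 as the lowest. The 50 genes lay at 23.3 CPM or more in every group mean.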
